A study of Mus musculus with 75 samples.

Results

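AM251 was given to high-fat-fed mice that lack the cannabinoid receptor CB1, and the liver was profiled on microarrays, so that responses to the compound could be read where its main target is missing. The comparison holds 9 of the 75 arrays in the series, 5 labelled as AM251 and 4 as vehicle, chosen by title. Of 38385 probe sets, the brightest for each symbol gave 19147 genes, each as log2 intensity. All 9 arrays came from male CB1-/- (homozygous knockout) mice of the strain C57BL/6, and no wild-type allele of the receptor was left in either group. The mice started at 2 months of age on a diet with 59.4% of its energy from fat, stayed on it for 14 weeks, and received 10 mg/kg AM251 or methylcellulose vehicle by gavage once a day for 2 days, with tissue taken at 10 in the morning of day 3. The deletion is present in every cell, so the livers had lacked the receptor throughout the diet. Further groups used beside it were high-fat-fed wild-type littermates (5 AM251, 5 vehicle), knockouts and wild types on chow with 13% of energy from fat (5 AM251 and 5 vehicle each), and epididymal fat of high-fat-fed knockouts (5 AM251, 3 vehicle). The labels number the arrays but do not state that each is a separate mouse. The p-values rest on the spread between arrays within groups, estimated for each gene over all 39 liver arrays.

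CB1, encoded by Cnr1, is the receptor for the endocannabinoids anandamide and 2-arachidonoylglycerol, and AM251 is a small-molecule inverse agonist of it. In liver, drugs and other foreign compounds are commonly sensed by the nuclear receptors CAR (Nr1i3) and PXR (Nr1i2). These pair with RXR and switch on cytochrome P450 genes, with the Cyp2b, Cyp2c and Cyp3a families as their best-known targets. The encoded enzymes oxidise drugs, steroids and fatty acids in the endoplasmic reticulum, using haem and electrons supplied by partner enzymes.

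Only Cyp2c29 and Cyp2c55 passed the test in this comparison, and Cyp2b10 joined them when both diets were averaged. Their RefSeq promoters (GRCm38.p6) are shown because the results turn on these 3 genes. Each covers 300 bases around the start site, most of them upstream of it. They run 5′ to 3′ on the + strand, at chr19:39286835-39287134 for Cyp2c29, chr19:39006769-39007068 for Cyp2c55 and chr7:25897408-25897707 for Cyp2b10. Capitals mark matches to the nuclear receptor core motifs AGGTCA and AGTTCA on both strands, and to the TATA box TATAAA on the printed strand.
Cyp2c29: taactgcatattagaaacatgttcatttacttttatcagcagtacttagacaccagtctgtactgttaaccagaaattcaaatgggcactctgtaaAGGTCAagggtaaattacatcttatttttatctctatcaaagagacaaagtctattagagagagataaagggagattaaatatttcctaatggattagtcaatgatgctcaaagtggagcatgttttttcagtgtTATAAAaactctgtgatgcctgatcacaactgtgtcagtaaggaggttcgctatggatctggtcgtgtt
Cyp2c55: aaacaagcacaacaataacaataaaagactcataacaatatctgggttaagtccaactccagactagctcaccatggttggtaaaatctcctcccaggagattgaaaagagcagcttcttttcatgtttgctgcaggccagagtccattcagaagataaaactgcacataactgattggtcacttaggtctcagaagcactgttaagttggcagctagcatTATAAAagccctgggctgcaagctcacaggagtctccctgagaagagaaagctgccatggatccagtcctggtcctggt
Cyp2b10: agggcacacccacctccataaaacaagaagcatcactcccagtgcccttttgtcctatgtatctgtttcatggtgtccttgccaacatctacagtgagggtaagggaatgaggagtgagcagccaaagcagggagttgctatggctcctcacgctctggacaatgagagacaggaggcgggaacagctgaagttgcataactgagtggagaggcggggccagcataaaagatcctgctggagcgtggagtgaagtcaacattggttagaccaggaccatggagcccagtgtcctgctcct
The Cyp2c29 window held 1 match to AGGTCA, starting at position -154 from the start site, and a TATAAA at -19. The Cyp2c55 window held a TATAAA at -29 and no core motif, and the Cyp2b10 window held neither. A core motif of either kind was present in 27.7% of 32851 RefSeq promoter windows of the same length (AGGTCA in 16.3%, AGTTCA in 14%), and TATAAA in 8.32%. No window of the 3 genes held a direct repeat of core motifs with 4 bases between them, which was found in 9 of all the windows (0.0274%). These are letter matches in this window alone.

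The arrays resembled each other. Each array's mean correlation with the other 8 was between 0.9928 and 0.9941, and median intensities were between 25.8 and 28.1. They read as liver. Albumin (Alb) was between 14.78 and 14.91 in log2 intensity, against 5.49 to 8.33 in high-fat knockout fat, and the fat hormone Adipoq between 2.69 and 3.06, against 13.85 to 14.01. The brighter of the 2 Cnr1 probe sets did not separate the genotypes: it read 5.84, 6.09, 5.59 and 5.79 in the vehicle arrays, 5.82, 5.58, 5.82, 5.86 and 6.13 in the AM251 arrays, and 5.51 to 5.99 in high-fat wild-type vehicle liver. The other was dim, at 2.47 to 2.91, 2.73 to 3.03 and 2.45 to 2.81 in the same groups. Where they lie relative to the deleted part was not analysed here, so they are no check of the label.

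Of 19147 genes, 2 rose and 0 fell in high-fat knockout liver (0.0104%, limma with Benjamini-Hochberg adjustment over all genes, threshold 0.05). An unadjusted p under 0.05 was reached by 644 genes (3.36%), of which 188 were higher (0.982%) and 456 lower (2.38%), where 957 would be the 5% share of all genes. All AM251 arrays lay above all vehicle arrays for 103 genes (0.538%) and below them for 282 (1.47%). The median change over all genes was -0.025.

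Cyp2c29, a cytochrome of the epoxygenase family of fatty acid and drug oxidases, rose from an already high level. Its log2 intensity was 12.86, 12.98, 12.88 and 12.47 in the vehicle arrays and 14.14, 13.88, 13.98, 13.98 and 13.93 in the AM251 arrays. Every AM251 array lay above every vehicle array, and the AM251 arrays were the tighter group (SD 0.099, n = 5, against 0.23, n = 4). The change was 1.18 ± 0.13 (SE), a 2.27-fold rise, with a 95% interval of 0.92 to 1.45 and an adjusted p of 9.4e-07 (limma).

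Cyp2c55, another member of that subfamily, rose from a much lower level. It read 5.73, 5.99, 5.69 and 5.80 with vehicle and 8.20, 8.0, 8.71, 8.91 and 8.04 with AM251. The groups did not overlap. The change was 2.57 ± 0.33 (SE), a 5.93-fold rise, with a 95% interval of 1.89 to 3.24 and an adjusted p of 3.09e-05 (limma). Cyp2c29 and Cyp2c55 passed in all 17 alternatives fitted by gene, with changes of 1.03 to 1.24 and 2.27 to 2.66.

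Cyp2b10, the cytochrome most often used as a readout of CAR, was low with vehicle at 4.99, 4.76, 4.76 and 4.49, and read 8.91, 6.17, 6.82, 7.06 and 6.05 with AM251. All AM251 arrays were higher than all vehicle arrays, but they were spread over an SD of 1.15, with array 45 the highest. The change of 2.25 ± 0.60 (SE) had an unadjusted p of 0.000565 and did not pass (adjusted p = 0.999, limma). It was 4.76-fold, with an interval of 1.04 to 3.46 in log2, and passed in 0 of 17 alternatives, with adjusted p from 0.236 to 1.

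**Figure D1:**
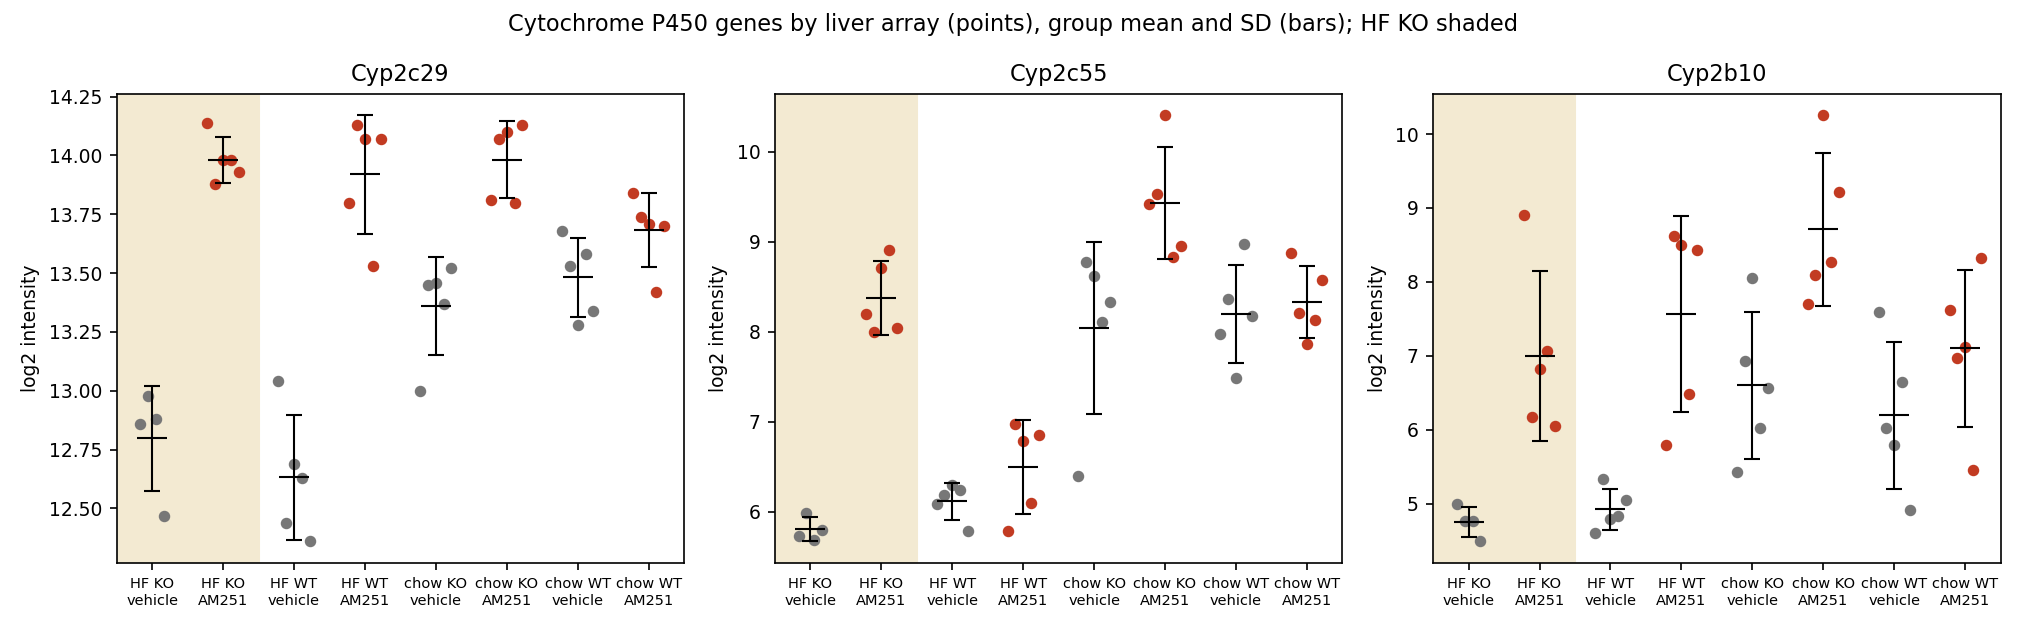
Log2 intensity of Cyp2c29, Cyp2c55 and Cyp2b10 in each of 39 liver arrays (points), with group mean and SD (bars), by diet (HF, high-fat), genotype (KO, CB1-/-; WT, wild type) and treatment. In the shaded high-fat knockout panels the AM251 arrays of all 3 genes lie above the vehicle arrays, at means of 13.98 against 12.80, 8.37 against 5.80 and 7.00 against 4.75.

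The remaining drug-inducible cytochromes moved little. Of 34 measured members of that list, 2 rose, 0 fell and 32 did not pass, and the list's median change was -0.0052, beside -0.025 over all genes. An unadjusted p under 0.05 was reached by 6 members, all higher (17.6%, beside 0.982% of all genes). Besides the 3 genes above these were Cyp3a11, Cyp2c50 and Cyp3a44, the last 2 named after their values were seen. Cyp3a11, the main PXR-regulated drug oxidase, read 12.84, 12.85, 12.61 and 11.61 with vehicle and 13.21, 12.67, 12.82, 13.09 and 13.05 with AM251, so the groups overlapped and vehicle array 44 was the lowest. Its change was 0.49 ± 0.16 (SE, adjusted p = 0.999, limma) and 0.20 without that array. Cyp2c50 changed by 0.67, from 8.42 to 9.01 with vehicle to 9.10 to 9.95 with AM251, without overlap. Cyp3a44 stayed dim, at means of 2.93 and 3.28. The female-biased Cyp2b9, also named after its values were seen, read 7.66 in AM251 array 45 and 3.72 to 4.28 in the other AM251 arrays, against 3.46 to 4.71 with vehicle. Members of the Cyp2b, Cyp2c and Cyp3a families are close in sequence, and cross-hybridisation between them was not tested.

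The sensors and partners of the cytochromes gave no call. Of 25 receptors and cofactors, 0 passed and 0 had an unadjusted p under 0.05 (limma), with a median of 0.031. Nr1i3 changed by 0.034 ± 0.17 (SE; 95% interval -0.32 to 0.38) and Nr1i2 by 0.13 ± 0.15 (-0.17 to 0.43). The Nr1i3 probe set read 9.74 to 9.97 with vehicle and 9.64 to 10.14 with AM251, and Nr1i2 read 6.81 to 7.24 and 6.88 to 7.38, so the receptors' own levels overlapped between the groups. In wild-type liver both rose with AM251, Nr1i3 by 0.75 (adjusted p = 0.00536) and Nr1i2 by 0.59 (adjusted p = 0.0128), while their genotype differences of -0.72 and -0.46 did not pass (adjusted p = 0.268 and 0.584). Of 14 genes that supply haem and electrons, 0 passed and 0 had an unadjusted p under 0.05 (median 0.018). The highest among them was Alas1, the first enzyme of haem synthesis, at a change of 0.75 ± 0.43 (SE), named after its value was seen. Of 20 drug transporters, 0 passed and 0 had an unadjusted p under 0.05 (median 0.03).

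Further enzymes of drug breakdown showed values but no calls. Among 35 other drug-handling enzymes, 0 passed, 28 had a positive change (80%, beside 40.7% of all genes) and the median was 0.081. An unadjusted p under 0.05 was reached by 4, all higher (11.4%, beside 0.982% of all genes, limma). The carboxylesterase Ces2a read 10.95, 11.22, 11.10 and 10.69 with vehicle and 11.58, 11.29, 11.41, 11.48 and 11.29 with AM251. Its groups did not overlap and its change was 0.42 ± 0.13 (SE). The alcohol dehydrogenase Adh7 (0.39) also had no overlap, and the flavin monooxygenase Fmo5 (0.36) and the aldo-keto reductase Akr1c19 (0.47) overlapped. Among 43 conjugation enzymes 0 passed and the median was 0.037. At an unadjusted p under 0.05, 2 were higher and 1 lower (6.98% together, beside 3.36% of all genes, limma). These were the glutathione transferases Gstt2 (0.37) and Gstm4 (0.27), and the glucuronosyltransferase Ugt2b38 (-1.38), which ranged from 4.19 to 6.93 among the AM251 arrays.

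**Figure D2:**
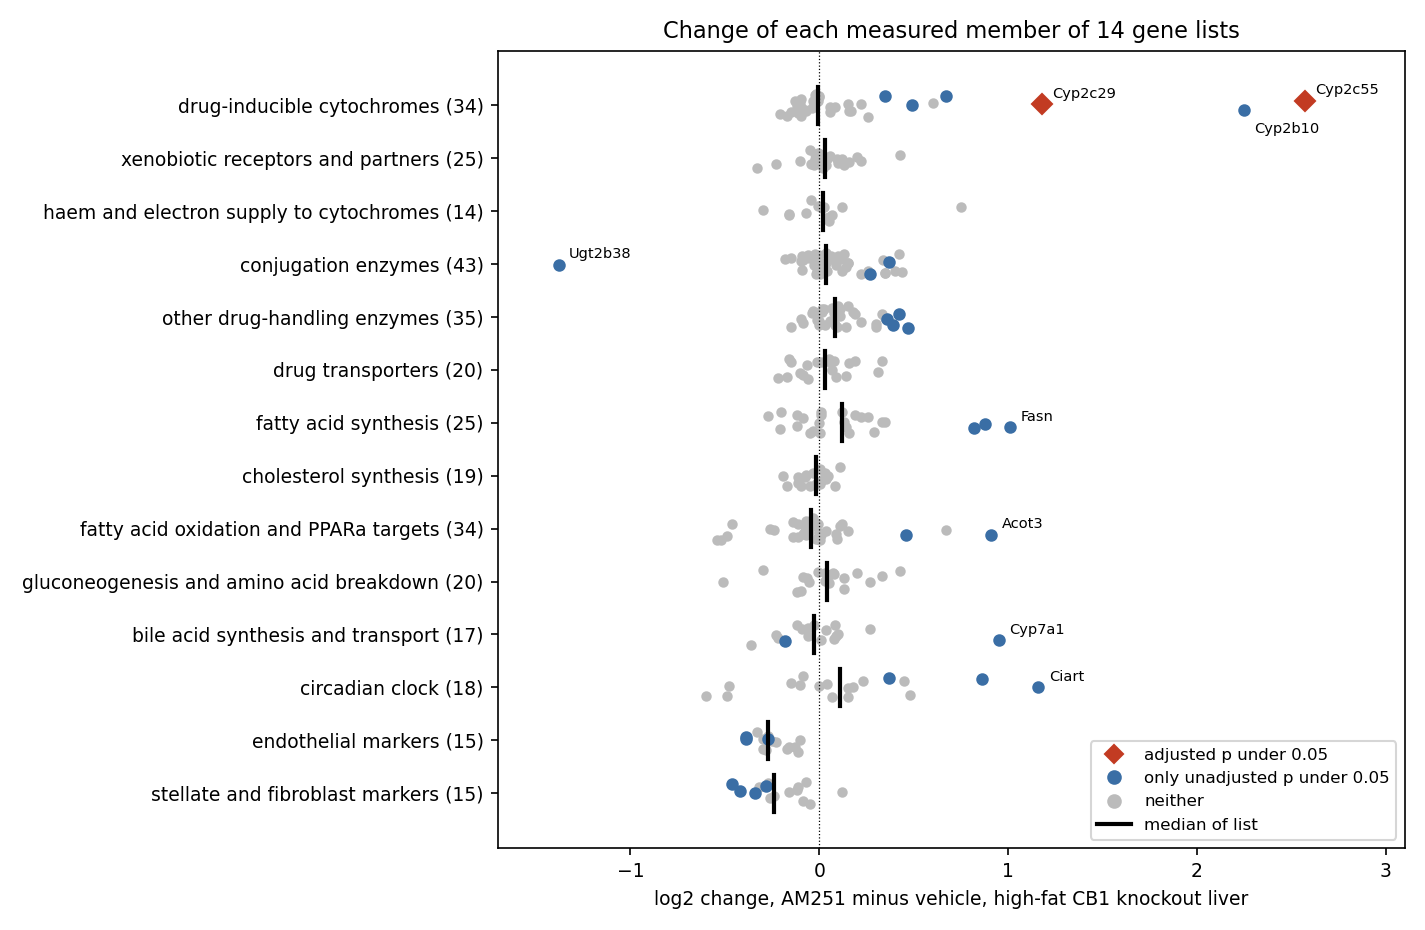
Log2 change (AM251 minus vehicle, high-fat knockout liver) of each measured member of 14 gene lists, with the list median as a black bar and the number of members in brackets. The only members with an adjusted p under 0.05 are Cyp2c55 and Cyp2c29, at 2.57 and 1.18, while the endothelial and stellate lists have medians of -0.27 and -0.24.

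On chow, AM251 in knockout liver gave 24 calls (18 higher, 6 lower, 0.125%), a count that ran from 0 (without AM251 array 22) to 351 (without vehicle array 18) and moved by over 1.5 times for 9 of the 10 arrays left out in turn. Cyp2c29 rose there by 0.62 (adjusted p = 0.0244, limma), but the call was lost in 6 of 17 alternatives. The chow changes of Cyp2c55 and Cyp2b10 were 1.38 (adjusted p = 0.0594) and 2.11 (adjusted p = 0.0966). The 2 diets share no array, and the average of their effects was tested. It called 3 genes, all higher (0.0157%), and these were Cyp2c29 at 0.90 ± 0.089 (SE, adjusted p = 5.97e-08), Cyp2c55 at 1.97 ± 0.23 (adjusted p = 2.01e-06) and Cyp2b10 at 2.18 ± 0.41 (adjusted p = 0.0331). The first 2 held in all 27 alternatives, and Cyp2b10 in 10 of 27. Cyp2b10 was lost, for instance, without high-fat AM251 array 45 (change 1.94, adjusted p = 0.115) or chow AM251 array 22 (1.99, adjusted p = 0.129), and over all alternatives its adjusted p was 0.00777 to 0.284.

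Cyp2c29 and Cyp2c55 were also the only genes of 19147 whose AM251 arrays lay above all vehicle arrays on both diets, out of 103 on high-fat diet (1.94% of them) and 86 on chow (2.33%). In the downward direction there were 2 of 282 and 166, Pabpc2 (-0.16 and -0.21) and A930011G23Rik (-0.19 and -0.37), and 3 genes were separated in opposite directions. The 2.33% of the 86 stands beside 0.538% of all genes above on high-fat diet. In the downward direction 1.2% of the 166 stands beside 1.47% of all genes, so that overlap is near the share over all genes. Pabpc2 and A930011G23Rik are named after their values were seen. The vehicle arrays of the 2 diets did not overlap for any of the 3 cytochromes, a difference that was not tested. Cyp2c29 lay between 13.00 and 13.52 in chow knockout vehicle liver, against 12.47 to 12.98 on high-fat diet. Cyp2c55 lay between 6.40 and 8.77 (median 8.33) in chow knockout vehicle liver, against 5.69 to 5.99 on high-fat diet, and the high-fat AM251 arrays, from 8.0 to 8.91, fell inside that chow vehicle range for all but the highest array. Cyp2b10 read 5.43 to 8.05 in chow knockout vehicle liver, against 4.49 to 4.99 on high-fat diet. No gene passed the test of a diet difference in the AM251 effect (0 of 19147, 0%, limma), and 1334 had an unadjusted p under 0.05. The difference was 0.56 for Cyp2c29 (95% interval 0.20 to 0.93), 1.18 for Cyp2c55 (0.26 to 2.11) and 0.14 for Cyp2b10 (-1.52 to 1.80), with adjusted p of 0.624, 0.675 and 0.983.

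In high-fat wild-type liver, which shares no array with the knockout, AM251 changed 366 genes (1.91%), 170 higher and 196 lower (233 without wild-type vehicle array 2). In the knockout, 73 of the 170 had a change of the same sign (42.9%, median -0.015, beside a wild-type median of 0.60). This is near the 40.7% of all genes with a positive change in the knockout. Of the 196, 77 had the same, negative sign (39.3%, median 0.04, beside -0.73). The other 119 had a positive change, a larger share than the 40.7% of all genes with a positive change. Of these 366 genes, 23 had an unadjusted p under 0.05 in the knockout, 11 in the same direction and 12 in the opposite one, a share to be read beside the 3.36% of all genes. Among those moving the same way were Cyp2c29 (wild-type change 1.28), Cyp2b10 (2.65), Ces2a (0.59), Gstt2 (0.88) and the acyl-CoA thioesterases Acot3 (1.65) and Acot4 (0.67). The knockout changes of Acot3 and Acot4 were 0.91 and 0.46, and neither passed.

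**Figure D3:**
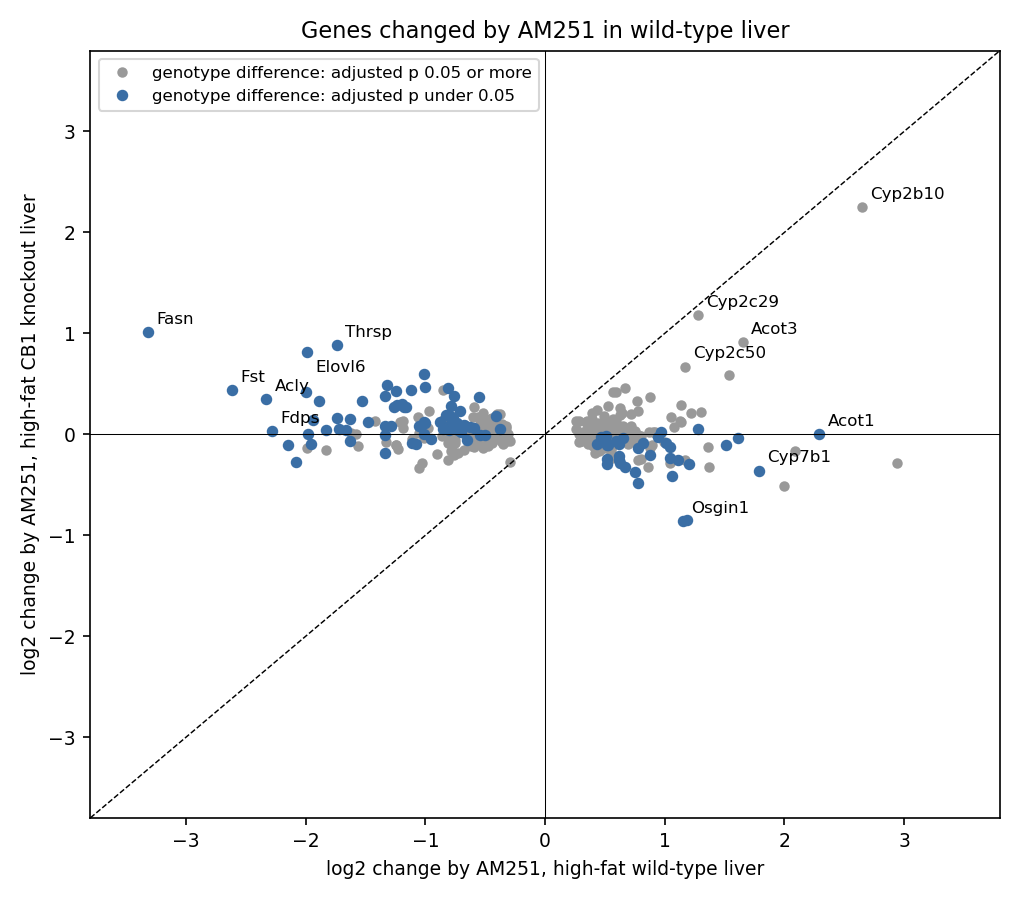
Log2 change by AM251 in high-fat knockout liver (vertical) against that in high-fat wild-type liver (horizontal) for the 366 genes called in wild type, with genes whose genotype difference passed in blue and the line of equal change dashed. Most points lie near 0 on the vertical axis, Cyp2b10 (2.25 and 2.65) and Cyp2c29 (1.18 and 1.28) lie near the dashed line, and Fasn is at 1.01 and -3.32.

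The genotype difference of the AM251 effect, knockout minus wild type, passed for 108 genes (0.564%). Both this test and the wild-type test use the same wild-type arrays, so genes passing both, here and among the lipid genes below, are not independent agreement. Of the 108, 71 had the higher and 37 the lower change in the knockout (100 and 30 after quantile normalization), and 67 and 35 of them were also wild-type calls. Leaving out array 46 (AM251) or 42 (vehicle) of the knockout gave 66 and 67 genes, and leaving out vehicle array 4 of the wild type gave 70. Cyp2c55 was among them: its wild-type arrays read 5.78 to 6.30 with vehicle and 5.79 to 6.98 with AM251, a change of 0.39, and the difference was 2.18 ± 0.46 (SE, adjusted p = 0.0124), past the threshold in all 26 alternatives. For Cyp2c29 the difference was -0.10 (95% interval -0.46 to 0.26) and for Cyp2b10 -0.39 (-2.06 to 1.27). In wild-type liver the AM251 arrays 33 and 38 read lowest for all 3 cytochromes, for Cyp2b10 at 5.80 and 6.48 beside 8.43 to 8.62 in the other 3. The knockout change was the larger of the pair for 3 of the 108 genes: Cyp2c55, Noct and Grip1os1, the last 2 named after their values were seen.

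Noct, a deadenylase-family protein with a daily rhythm in liver, read 7.15, 7.01, 6.30 and 7.58 with vehicle and 8.78, 8.75, 7.33, 8.63 and 8.88 with AM251. AM251 array 47 fell inside the vehicle range and the other 4 lay above it. Its change was 1.46 ± 0.32 (SE, adjusted p = 0.35, limma), beside -0.44 in wild type and -0.11 in chow knockout liver. The genotype difference of 1.91 passed (adjusted p = 0.0276), but not in 10 of 26 alternatives (adjusted p up to 0.12, without vehicle array 42). Grip1os1 was dim, at 3.50 to 3.73 and 3.73 to 4.15 in the knockout arrays, with a change of 0.44 and a difference of 0.59 (adjusted p = 0.026) that did not pass in 8 of 25 alternatives.

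Genes of lipid synthesis, many of which fell in wild-type liver, gave no call in the knockout. Of 25 genes of fatty acid synthesis, 0 passed, 16 had a positive change (64%, beside 40.7% of all genes) and the median was 0.12. In wild type 15 of them fell (median -1.11), beside 1.02% of all genes, and 13 passed the genotype difference in the positive direction, beside 0.371% of all genes. Fatty acid synthase, Fasn, read 7.67, 8.61, 7.53 and 8.54 with vehicle and 9.11, 9.52, 8.74, 9.12 and 9.0 with AM251. All AM251 arrays lay above all vehicle arrays, with a change of 1.01 ± 0.36 (SE; adjusted p = 0.999, limma). In wild type Fasn fell by 3.32 (adjusted p = 3.84e-08), and the difference was 4.33 ± 0.50 (SE, adjusted p = 3.63e-06).

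Thrsp, a lipogenic regulator, read 11.86, 12.55, 11.92 and 12.77 with vehicle and 13.00, 13.49, 12.82, 13.25 and 13.25 with AM251, again without overlap. Its change of 0.88 ± 0.35 (SE) did not pass, and its genotype difference was 2.62 (adjusted p = 0.00313). The elongase Elovl6 changed by 0.82 ± 0.30 (SE), with only AM251 array 45 inside the vehicle range of 8.84 to 9.58, and its genotype difference was 2.81 (adjusted p = 9.87e-05). The citrate lyase Acly had 0.35 ± 0.32 (SE) and a difference of 2.67. Beside this, knockout vehicle liver started lower than wild-type vehicle liver for Fasn (-1.47, adjusted p = 0.033) and Elovl6 (-1.40, adjusted p = 0.00897), while Thrsp (-1.05) and Acly (-0.90) did not pass that comparison. With AM251 the knockout Fasn arrays, 8.74 to 9.52, lay within the wild-type vehicle range of 8.01 to 10.52. The stearoyl-CoA desaturase Scd1, named after its values were seen, read 12.46 in AM251 array 45 and 13.89 to 14.29 in the other 8 arrays.

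The 19 genes of cholesterol synthesis gave small values in the knockout. Their changes ran from -0.19 to 0.11 with a median of -0.017, 0 passed and 0 had an unadjusted p under 0.05 (limma), where 17 fell in wild type (median -1.29, beside 1.02% of all genes falling) and 10 passed the genotype difference in the positive direction (beside 0.371%). The farnesyl diphosphate synthase Fdps changed by 0.032 (95% interval -0.43 to 0.50) and the sterol sensor partner Insig1 by 0.046 (-0.27 to 0.36), beside -2.28 and -1.66 in wild type. The signs of Fdps and Insig1 in the knockout turned when single arrays were left out. Their genotype differences were 2.31 (adjusted p = 5.25e-05) and 1.71 (adjusted p = 1.51e-05).

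**Figure D4:**
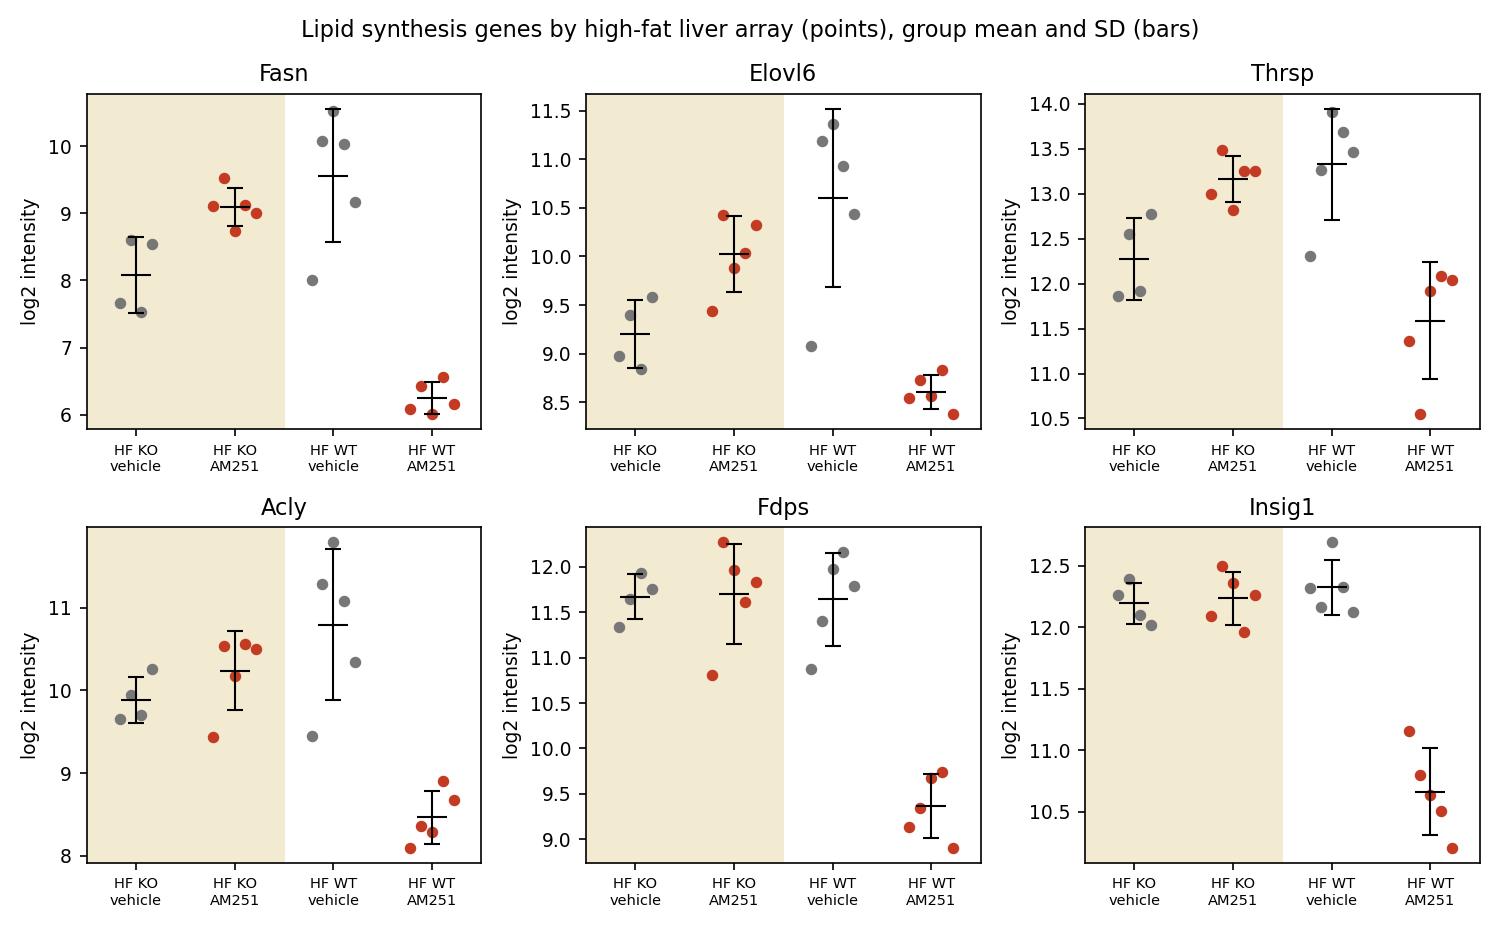
Log2 intensity of 6 lipid synthesis genes in each of 19 high-fat liver arrays (points), with group mean and SD (bars). In the shaded knockout panels the AM251 means of Fasn, Elovl6 and Thrsp are 9.10, 10.02 and 13.16 against 8.09, 9.20 and 12.28 with vehicle, whereas the wild-type AM251 means are 6.25, 8.61 and 11.59.

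Fat burning, glucose production and bile acid genes gave no calls. Among 34 genes of fatty acid oxidation and PPARα targets the median was -0.042 and 2 had an unadjusted p under 0.05, Acot3 and Acot4, beside 3.36% of all genes. In wild type 10 rose and 1 fell, beside 0.888% and 1.02% of all genes. Acot1, a thioesterase that rose by 2.29 in wild type, changed by -0.00092 ± 0.35 (SE) in the knockout, a value whose sign is not settled, and the difference was -2.29 (adjusted p = 0.012). Of 20 genes of gluconeogenesis and amino acid breakdown 0 passed and 0 had an unadjusted p under 0.05 (median 0.04). Of 17 bile acid genes 0 passed. Cyp7a1, the rate-limiting enzyme of bile acid synthesis, read 7.75 to 8.57 with vehicle and 8.52 to 9.85 with AM251 (0.95 ± 0.42, SE), with AM251 array 48 inside the vehicle range. Hsd3b7, a later enzyme of that route, changed by -0.18 ± 0.076 (SE) without overlap.

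Of 18 genes of the circadian clock 0 passed, 3 had a higher value at an unadjusted p under 0.05 (16.7%, beside 0.982% of all genes) and the median was 0.11. The repressor Per2 read 6.78, 7.74, 6.87 and 7.75 with vehicle and 8.53, 8.06, 7.56, 8.07 and 8.50 with AM251, and only AM251 array 47 reached into the vehicle range. Its change was 0.86 ± 0.35 (SE), beside 0.46 in wild type and -0.18 in chow knockout liver. The repressor Ciart changed by 1.16 ± 0.55 (SE), with array 47 again inside the vehicle range at 5.25. Bhlhe41 was dim and changed by 0.37, while its other probe set gave -0.13. Other clock genes were lower. Nr1d1 changed by -0.48 without overlap and Nfil3 by -0.60 with overlap, at unadjusted p of 0.0558 and 0.0563 (limma). Both are named after their values were seen. Of the 18 genes 11 had a positive change (61.1%, beside 40.7% of all genes).

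Endothelial markers, and stellate and fibroblast markers, were lower in some AM251 arrays. All 15 endothelial markers had a negative change (median -0.27, range -0.39 to -0.10), as did 14 of 15 stellate and fibroblast markers (median -0.24), beside a median of -0.012 for 15 hepatocyte markers and -0.025 for all genes, and 0 of these markers passed (limma). Of all genes 40.7% had a positive change. Unadjusted p under 0.05 was reached by 3 endothelial and 4 stellate markers (20% and 26.7%, beside 2.38% of all genes lower at that level). These were the sinusoidal endothelial receptors Fcgr2b (-0.39), Stab2 (-0.27) and Lyve1 (-0.39), and Rgs5 (-0.46), Colec11 (-0.42), Ecm1 (-0.34) and Hgf (-0.28) of the stellate list. Stab2 read 9.53, 9.57, 9.53 and 9.67 with vehicle and 9.34, 9.33, 9.45, 9.33 and 9.11 with AM251, without overlap. Averaged over the endothelial list, the AM251 arrays 45, 46 and 49 lay 0.40, 0.28 and 0.34 below the vehicle mean and arrays 47 and 48 at -0.10 and -0.092, where the vehicle arrays ran from -0.096 to 0.06. Averaged over the stellate list, vehicle arrays ran from -0.14 to 0.21. The AM251 arrays 45, 46 and 49 lay at -0.28, -0.30 and -0.31, and arrays 47 and 48 at -0.037 and -0.10. Arrays 45, 46 and 49 were also the lowest for the MHC class II chain H2-Eb1 (8.27, 7.98 and 8.08, beside 8.95 to 9.42 with vehicle) and for Igfbp7, a vascular and stellate gene (11.19, 11.28 and 11.01, beside 11.55 to 11.95). The summed endothelial intensity was 5880 to 6380 with vehicle and 4540 to 5990 with AM251, with the dimmest marker at 18.7. In chow knockout and high-fat wild-type liver the endothelial medians were 0.074 and 0.041. Other cell types were mixed in high-fat knockout liver. Of 17 macrophage markers 6 had a positive change (median -0.20), and 0 had an unadjusted p under 0.05 (limma). Their list averages were also lowest in AM251 arrays 45, 46 and 49, at -0.14, -0.57 and -0.45. They were 0.29 and 0.11 in arrays 47 and 48, where the vehicle arrays ran from -0.11 to 0.13. Of 16 lymphocyte and neutrophil markers 5 had a positive change (median -0.061). In that list 2 were lower at an unadjusted p under 0.05 (12.5%, beside 2.38% of all genes, limma). Of 9 cholangiocyte markers 6 had a positive change (median 0.039). In whole liver, fewer cells of a type and less RNA per cell cannot be told apart, and the part of cell makeup in the other values was not tested.

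**Figure D5:**
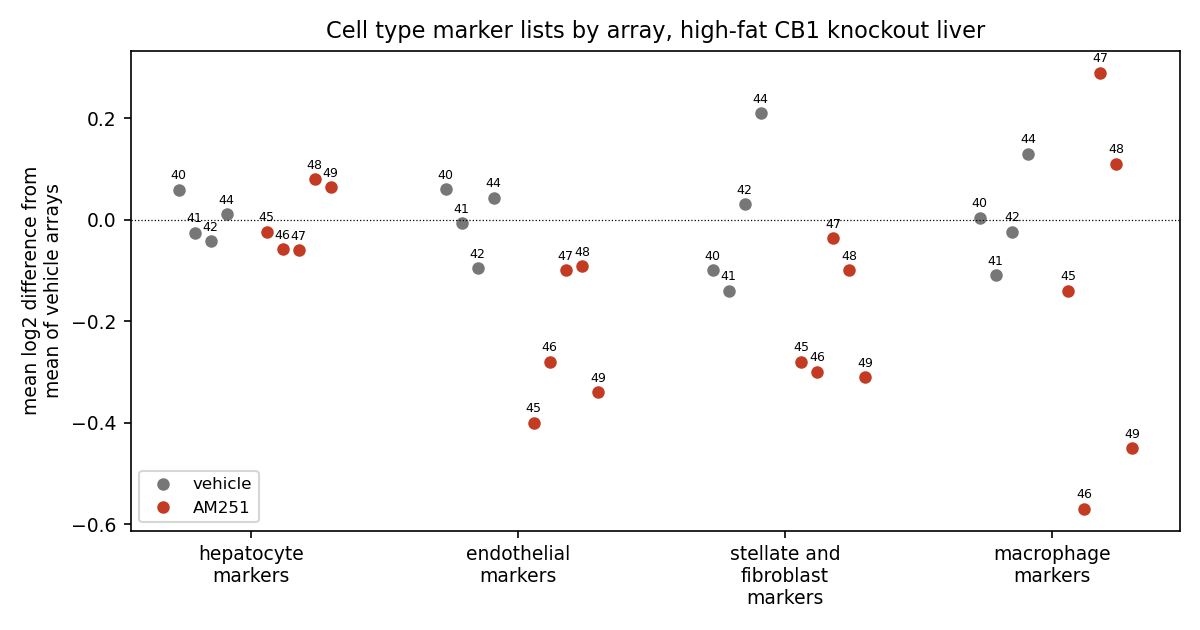
Mean log2 difference from the average of the vehicle arrays over the members of 4 cell type marker lists, for each high-fat knockout liver array, labelled by its number. Hepatocyte markers stay between -0.06 and 0.08, while endothelial markers reach -0.40 in AM251 array 45 and macrophage markers run from -0.57 to 0.29 among the AM251 arrays.

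Outside the lists, 10 genes with the largest higher and 10 with the largest lower values were taken among those without overlap, with an unadjusted p under 0.01 and a group mean of at least 5. Beside Cyp2c55, Cyp2b10, Cyp2c29, Fasn and Ces2a, the higher ones were Fam47e (0.99), Spsb4 (0.51), Setd4 (0.46), Chst12 (0.28) and the proteasome subunit Psmd14 (0.27). The lower ones were led by the mitochondrial carrier Slc25a30 (-1.29), which read 8.13, 8.47, 9.89 and 8.31 with vehicle and 7.98, 7.25, 7.23, 7.64 and 6.93 with AM251. Next came the adipokine Serpina12 (-0.90), the stress-response gene Osgin1 (-0.86), H2-Eb1 (-0.71), Septin4 (-0.65), Lzic (-0.60), the transcription cofactor Cited2 (-0.46), Igfbp7 (-0.46), the ephrin Efnb2 (-0.42) and the cAMP sensor Rapgef3 (-0.41). Osgin1 rose by 1.15 in wild type, and its genotype difference was -2.01 (adjusted p = 0.00417). Among genes that passed the genotype difference, those with the largest negative values beside Acot1 and Osgin1 were the oxysterol hydroxylase Cyp7b1 (-2.15), the cell cycle factor E2f8 (-2.04) and the ER degradation factor Derl3 (-1.65), with knockout changes of -0.36, -0.85 and -0.034. A second E2f8 probe set, nearly as bright, gave a knockout change of -0.23 and a genotype difference of -0.15 that did not pass, so the probe sets of that gene disagree. Follistatin, Fst, had the second largest positive genotype difference among genes that passed (3.06), with a knockout change of 0.44 ± 0.42 (SE).

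The remaining lists gave 0 calls (limma). Among 18 genes of the endocannabinoid system the median was -0.034, and Abhd12, a hydrolase of the pathway's lipids, had an unadjusted p under 0.05 at -0.30. Among 28 acute phase and interferon genes the median was -0.042, with Socs3 (-0.86), Ifit2 (-0.47) and Rsad2 (-0.34) lower at that level. Of 24 genes of oxidative and ER stress only Chac1 (-0.81) reached it, and of 26 growth and cell cycle genes Rrm2 (0.48), Mcm7 and Tyms (both -0.23). All 10 measured male-biased liver genes had a negative change (median -0.16, beside 0.57 in wild type), where 40.7% of all genes had a positive one. Of these 10, Ugt2b38 reached an unadjusted p under 0.05. Of 15 female-biased genes 9 had a positive change (median 0.035), with 2 higher and 1 lower at that level. The 23 genes of oxidative phosphorylation had a median of 0.02 and none at that level. Of all genes 3.36% reached it. Genes named in these sentences were chosen after their values were seen, apart from Ugt2b38.

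In epididymal fat of high-fat-fed knockouts the 3 cytochromes stayed low with either treatment. Over the 8 fat arrays Cyp2c29 lay between 5.06 and 5.58, Cyp2c55 between 3.67 and 4.21 and Cyp2b10 between 4.58 and 4.99, and the AM251 and vehicle arrays overlapped for each.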

How the data were processed

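RNA of mouse liver was measured on 1-colour arrays, 1 array a sample. The deposited series table holds intensity values that the authors normalized with RMA, per the submitters' processing notes (version and build not given in the sources used here), on a linear scale. Values were taken as log2 with no pseudocount. Of 38385 probe sets, 24543 had a gene annotation, 65 of them with several symbols, and 13907 had no single symbol here. Symbols were updated through Entrez numbers to RefSeq, and for each of 19147 genes the brightest probe set, averaged across liver arrays, was used. Groups came from the titles. The test was limma 3.58.1 (R 4.3.3): a mean for each of 8 liver groups over 39 arrays, moderated two-sided test, Benjamini-Hochberg over all genes, threshold 0.05, intervals of 95%. The number of arrays limits the precision. The fit was tested on simulated data.

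Named were genes past the threshold, the 10 largest rises and falls without overlap at an unadjusted p under 0.01 and a group mean of at least 5, up to 4 members of each described list with an unadjusted p under 0.05, a set of drug, sterol and lipid genes (Por among them has no value here), genes past the threshold in the average over diets, and up to 5 in each direction of the genotype difference. Genes outside this rule are said to be. The comparison and the gene lists were chosen with earlier results of these data known. Alternatives were a fit of only the groups compared, quantile normalization, the mean of all probe sets, the lower-intensity genes left out, a pseudocount of 16, array weights, a trended robust prior, all probe sets tested separately, other probe sets of a gene, and leaving out each array. Leaving out AM251 array 45 with vehicle array 44, and testing all probe sets for the average over diets, were added after seeing the data. Promoter windows came from RefSeq (GRCm38.p6).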

Additional observations from a re-analysis of the deposited data

Results flagged for a closer look

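Among the 4 vehicle or 5 AM251 arrays, 7 of 108 tested gene groups held a lone array. Chance gives about 1 in 20, so the count is near that share. The genes tested were named partly from these same arrays, so that rate is only a rough guide. Vehicle array 40 stood apart for Akr1c19 at 9.49 (others 8.92 to 8.96), Ecm1 at 10.41 (10.61 to 10.63), H2-Eb1 at 9.42 (8.95 to 9.01) and Lyve1 at 6.73 (7.26 to 7.28). Vehicle array 44 did so for Acot4 at 7.18 (7.59 to 7.66), vehicle array 42 for Lzic at 5.69 (5.20 to 5.26) and AM251 array 49 for Ugt2b38 at 6.93 (4.19 to 4.84).

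The AM251 effect differed between knockout and wild-type high-fat liver, by the test of the difference itself (limma, adjusted p under 0.05), for 13 named genes. Among them 10 met the naming rule for the largest differences past this same test, so the count is largely set by that rule. Over all genes the test passed for 108 of 19147 (0.564%). The knockout minus wild-type difference was 4.33 for Fasn, 3.06 for Fst, 2.81 for Elovl6, 2.67 for Acly, 2.62 for Thrsp, 2.31 for Fdps, 2.18 for Cyp2c55 and 1.71 for Insig1. It was -2.29 for Acot1, -2.15 for Cyp7b1, -2.04 for E2f8, -2.01 for Osgin1 and -1.65 for Derl3. The second E2f8 probe set gave -0.15. Of these 13, Cyp2c55 is the gene that passed in the knockout.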

How the results depend on the processing

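Calling 2 genes in high-fat knockout liver held in the alternatives run, with 2 to 3 genes called, and Cyp2c29 and Cyp2c55 were among them in all 17 fitted by gene. Noct was the third gene with array weights and without AM251 array 47. The average over diets called 2 to 4 genes as single arrays were left out and 2 when all probe sets were tested. The diet difference called 0 genes in every alternative. The genotype difference called 163 genes in a fit of only the groups compared and 230 with array weights, and 66 to 136 as single arrays were left out (fewest without high-fat knockout AM251 array 46 or vehicle array 42). The wild-type count was 625 with array weights, and 233 to 423 as arrays were left out. The chow knockout count was 0 in a fit of only the groups compared and with array weights, 6 with the mean of all probe sets, and 0 to 351 as arrays were left out (0 without AM251 array 22, 351 without vehicle array 18). The causes were not tested. Signs turned for 7 of the named genes. The other probe set of Bhlhe41 gave -0.13. Acot1 was 0.035 after quantile normalization, Cnr1 was -0.0038 with array weights, and Nr1i3 was -0.068 without AM251 array 45 and vehicle array 44. As single arrays were left out, Acot1 ranged from -0.30 to 0.23, Cnr1 from -0.064 to 0.10, Derl3 from -0.19 to 0.091, Fdps from -0.11 to 0.25, Insig1 from -0.021 to 0.11 and Nr1i3 from -0.021 to 0.10. No paired analysis was possible because the AM251 arrays (45 to 49) and the vehicle arrays (40, 41, 42 and 44) share no replicate number.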
